A study of Mus musculus with 2 samples.

Results

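Prohormone processing and secreted peptide genes were followed in single fibro/adipogenic progenitors (FAPs) of mouse limb muscle. The 10 genes code for the convertases *Furin*, *Pcsk1*, *Pcsk2*, *Pcsk5* and *Pcsk6*, the trimming enzyme *Cpe*, the granule proteins *Scg2* and *Scg5*, and the peptide precursors *Nppc* and *Penk*. They are 10 of 31053 genes in the count tables and were chosen for their measured levels in these same libraries, so their levels and differences are a description, with no test. All 10 were found in both tables, and 7 passed the expression minimum of a mean over 0.01 UMIs (unique molecular identifiers, 1 for each captured transcript) per 10000 with 20 or more UMIs in a class. *Pcsk1*, *Scg2* and *Scg5* did not pass it.

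Peptide hormones, neuropeptides and many growth factors are made as longer precursors, which convertases of the subtilisin family cut after basic residues on the way out of the cell. A carboxypeptidase then removes the basic residues left at the new end, and granins help to pack the cargo into dense-core granules in neurons and endocrine cells. FAPs are mesenchymal cells that lie between muscle fibres and act on their neighbours largely through secreted proteins, most of which leave by the constitutive pathway, where furin and its close relatives work.

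The study asks how the deubiquitinase Bap1 acts in the mesenchyme of limb muscle on the neuromuscular system. FAPs negative for lineage markers and Vcam1 and positive for Sca1 were sorted from 3-week-old C57BL/6 mice. Of the 2 libraries, 1 came from *Bap1* f/f mice without Cre, labelled *Bap1* WT, and 1 from *Prx1-Cre*;*Bap1* f/f mice, labelled *Bap1* ΔMPC. Both genotypes carry the floxed allele, and *Prx1-Cre* is active in limb bud mesenchyme from before birth, so the deletion is not limited to FAPs or to the age sampled. With 1 library per genotype, genotype, Cre, animal and library preparation cannot be told apart. The library labelled *Bap1* WT (here the WT-labelled library) gave 51015705 UMIs from 4103 cells, and its median cell held 12232. The library labelled *Bap1* ΔMPC (here the ΔMPC-labelled library) gave 49540066 UMIs from 4378 cells, and its median cell held 11017.5. The libraries shared 5 cell barcodes.

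*Bap1* itself stood at 17.6 CPM (summed UMIs of a gene over those of all genes in the same cells, scaled to a common total; 95% interval 16.5 to 18.8) in the WT-labelled library and at 21.6 CPM (20.4 to 23.0) in the ΔMPC-labelled library. Its count was thus not lower under the label of the deletion. Counts taken at the 3′ end do not show which exons a transcript held, so the deletion could not be checked here. Intervals throughout are exact, Poisson for levels and ratios and Clopper-Pearson for shares of cells, and cover counting error only, not the difference between animals.

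Cells were sorted into 3 classes by other genes. Dpp4-type cells had a summed score of *Pi16*, *Sema3c*, *Anxa3* and *Efemp1* of 25 or more UMIs per 10000, Cxcl14-type cells had a lower score with *Cxcl14* at 5 or more UMIs per 10000, and the rest are called other cells. Dpp4-type cells numbered 1050 (25.6%) in the WT-labelled and 1251 (28.6%) in the ΔMPC-labelled library, and Cxcl14-type cells 569 (13.9%) and 1020 (23.3%). The remaining 2484 and 2107 cells made up 60.5% and 48.1%. *Cxcl14* stood at 232 CPM over the WT-labelled library and at 690.1 CPM over the ΔMPC-labelled one, and more cells of the latter passed the limit drawn on it.

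Genes not used to draw the classes followed them. Their lists were chosen with earlier results of these data known, so this describes the classes and does not test them. The summed level of *Dpp4*, *Efhd1*, *Cd55*, *Wnt2*, *Dact2* and *Cd248* was 2878 and 3028 CPM in Dpp4-type cells of the WT-labelled and ΔMPC-labelled libraries, against 415 and 375 CPM in Cxcl14-type cells. The reverse held for *Smoc2*, *Hsd11b1*, *Col15a1*, *Crispld2*, *Sparcl1* and *Lum*, at 7926 and 4817 CPM in Cxcl14-type and 1402 and 1081 CPM in Dpp4-type cells. Medians over cells had the same order, with the first list at 28.2 and 28.8 UMIs per 10000 in Dpp4-type cells and 3.38 and 2.47 in Cxcl14-type cells. All 6 FAP markers were present, and their sum was lower in the ΔMPC-labelled library, at 44095 against 68788 CPM, led by *Col3a1* in both. Between scores of 20 and 25 lay 115 and 165 cells, and between 25 and 30 lay 95 and 172. Other cells shared more of their level with the Cxcl14-type list, at 4081 and 2906 CPM.

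The members together took 33774 UMIs (662 CPM) in the WT-labelled library and 37799 UMIs (763 CPM) in the ΔMPC-labelled library. *Pcsk6* alone held more than any other member in both. Levels are given as CPM of 3′ counts, in which a transcript counts once whatever its length, so no length was divided out when genes are set side by side.

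*Furin*, the broadly expressed convertase of the Golgi and cell surface, differed little between the libraries. It stood at 40.4 CPM in Dpp4-type, 57.9 CPM in Cxcl14-type and 46.1 CPM in other cells of the WT-labelled library. The corresponding levels were 42.1, 55.4 and 51.8 CPM in the ΔMPC-labelled library. The ratio of the ΔMPC-labelled to the WT-labelled library was 1.04 (0.930 to 1.17) in Dpp4-type cells and 0.957 (0.842 to 1.09) in Cxcl14-type cells, neither told apart from 1 at this depth. In other cells it was 1.12 (1.04 to 1.22). Dpp4-type cells had less *Furin* than Cxcl14-type cells, by 1.43-fold (1.26 to 1.63) in the WT-labelled and 1.32-fold (1.18 to 1.47) in the ΔMPC-labelled library.

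*Pcsk5*, a convertase of the constitutive pathway that cuts growth factors such as Gdf11, was lower in Dpp4-type cells of the ΔMPC-labelled library. Its level there was 65.5 CPM against 107 CPM in the WT-labelled library, or 1.64-fold lower (1.51 to 1.78). Cxcl14-type cells held 71.8 CPM in the WT-labelled and 72.7 CPM in the ΔMPC-labelled library, and other cells 117 and 95.3 CPM. In the WT-labelled library *Pcsk5* was thus higher in Dpp4-type than in Cxcl14-type cells, while in the ΔMPC-labelled library the order was turned, by 1.11-fold (1.01 to 1.22). With a score limit of 15 in place of 25 the log2 ratio of the classes was -0.01 there, nearer to 0 than the reported -0.15.

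*Pcsk6*, a secreted convertase that binds the matrix through heparan sulfate, was the most abundant member in 5 of 6 pairs of class and library. Dpp4-type cells held 578 CPM in the WT-labelled and 1075 CPM in the ΔMPC-labelled library, a ratio of 1.86 (1.81 to 1.91). Other cells had 116 CPM in the WT-labelled and 275 CPM in the ΔMPC-labelled library, a ratio of 2.37 (2.27 to 2.47). Cxcl14-type cells had 210.4 and 221 CPM, with a ratio of 1.05 (0.984 to 1.12). *Pcsk6* was therefore higher in the ΔMPC-labelled library in Dpp4-type and other cells, and in Cxcl14-type cells no difference was detectable at this depth.

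*Pcsk2*, the convertase of dense-core granules in neurons and endocrine cells, was near the floor in the WT-labelled library. It had 9 UMIs in Dpp4-type cells (0.638 CPM), 31 in Cxcl14-type cells (4.63 CPM) and 46 in other cells (1.52 CPM). The ΔMPC-labelled library had 345 UMIs (23.4 CPM), 579 UMIs (51.4 CPM) and 660 UMIs (28.1 CPM) in the same order of classes. Every class of the ΔMPC-labelled library thus stood above every class of the WT-labelled one, with no overlap of the intervals. The ratio was 36.6 (19.1 to 80.8) in Dpp4-type, 11.1 (7.75 to 16.5) in Cxcl14-type and 18.4 (13.7 to 25.4) in other cells. With a score limit of 15 the log2 ratio in Dpp4-type cells was 4.16, below the interval of the reported 5.20 (4.25 to 6.34). Within both libraries the level was highest in Cxcl14-type cells. A single cell of the ΔMPC-labelled library held up to 13 UMIs of *Pcsk2*, and cells with any held 1.99 on average.

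*Pcsk1*, the partner convertase of the same granules, was almost absent. It had 1 UMI in the WT-labelled library, in other cells, and 3 UMIs in the ΔMPC-labelled library, 1 in Cxcl14-type and 2 in other cells. No ratio can be given from these counts, and no UMI fell in Dpp4-type cells of either library. A floor of 3 cells would be 0.286% of Dpp4-type cells in the WT-labelled and 0.240% in the ΔMPC-labelled library. The upper limits of the intervals of the share of cells with a UMI are 0.351% and 0.294%.

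*Cpe*, the carboxypeptidase that trims basic residues after the convertases have cut, went the other way. In the WT-labelled library it stood at 19.1 CPM in Dpp4-type, 57.9 CPM in Cxcl14-type and 157 CPM in other cells. The ΔMPC-labelled library had 10.4, 17.5 and 42.9 CPM. The level was 1.83-fold lower (1.49 to 2.24) in Dpp4-type cells, 3.31-fold lower (2.78 to 3.95) in Cxcl14-type cells and 3.66-fold lower (3.42 to 3.92) in other cells. Other cells held the most *Cpe* in both libraries, and Dpp4-type cells the least.

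*Scg5*, whose product escorts the precursor of Pcsk2 through its maturation, was nearly undetected in both libraries. It had 3 UMIs in the WT-labelled library, 2 in Dpp4-type and 1 in other cells. In the ΔMPC-labelled library it had 9 UMIs, 5 in Dpp4-type and 4 in other cells, a ratio of 3.09 (0.771 to 17.7) that includes 1. No UMI fell in Cxcl14-type cells, where *Pcsk2* was highest. *Scg2*, a granin and precursor of secretoneurin, had no UMI in the WT-labelled library and 3 UMIs in other cells of the ΔMPC-labelled one. Both stayed below the expression minimum in every class, also in the library where *Pcsk2* was high.

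*Nppc*, the precursor of C-type natriuretic peptide, was modest in level. It stood at 7.16 CPM in Dpp4-type, 32.7 CPM in Cxcl14-type and 12.7 CPM in other cells of the WT-labelled library. Levels were 12.8, 37.1 and 27.2 CPM in the ΔMPC-labelled library. The ratio was 1.79 (1.40 to 2.30) in Dpp4-type and 2.14 (1.88 to 2.44) in other cells, and 1.14 (0.963 to 1.34) in Cxcl14-type cells, where no difference was detectable. In both libraries Cxcl14-type cells had the highest level.

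*Penk*, the precursor of the enkephalins, was among the more abundant members of the WT-labelled library. It stood there at 56.5 CPM in Dpp4-type, 189.6 CPM in Cxcl14-type and 152 CPM in other cells. The levels in the ΔMPC-labelled library were 14.4, 47.6 and 65.1 CPM. The level was 3.91-fold lower in Dpp4-type, 3.98-fold lower in Cxcl14-type and 2.33-fold lower in other cells. On the log2 scale the ratios were -1.97 (-2.19 to -1.75), -1.99 (-2.14 to -1.85) and -1.22 (-1.30 to -1.14). The intervals of the libraries do not overlap in any class.

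*Penk* counts in the ΔMPC-labelled library were also gathered in few cells. The 5% of cells with the most *Penk* held 36.3% of its UMIs in the WT-labelled library and 76.3% in the ΔMPC-labelled library, where 1 cell had 73. *Cpe* showed a like gathering, from 31.5% to 64.0%. Both genes were also lower in level there, and sparser counts gather in fewer cells by counting alone. What part this has in the gathering was not tested. *Nppc* was gathered in both libraries, at 73.4% and 75.3%, with a UMI in only 9.58% and 11.8% of cells. *Pcsk6* stood at 28.7% and 24.5% over all cells, which pools classes of unlike level. Within the classes it went from 15.7% to 13.2% in Dpp4-type, from 22.8% to 33.5% in Cxcl14-type and from 37.0% to 33.7% in other cells.

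**Figure D1:**
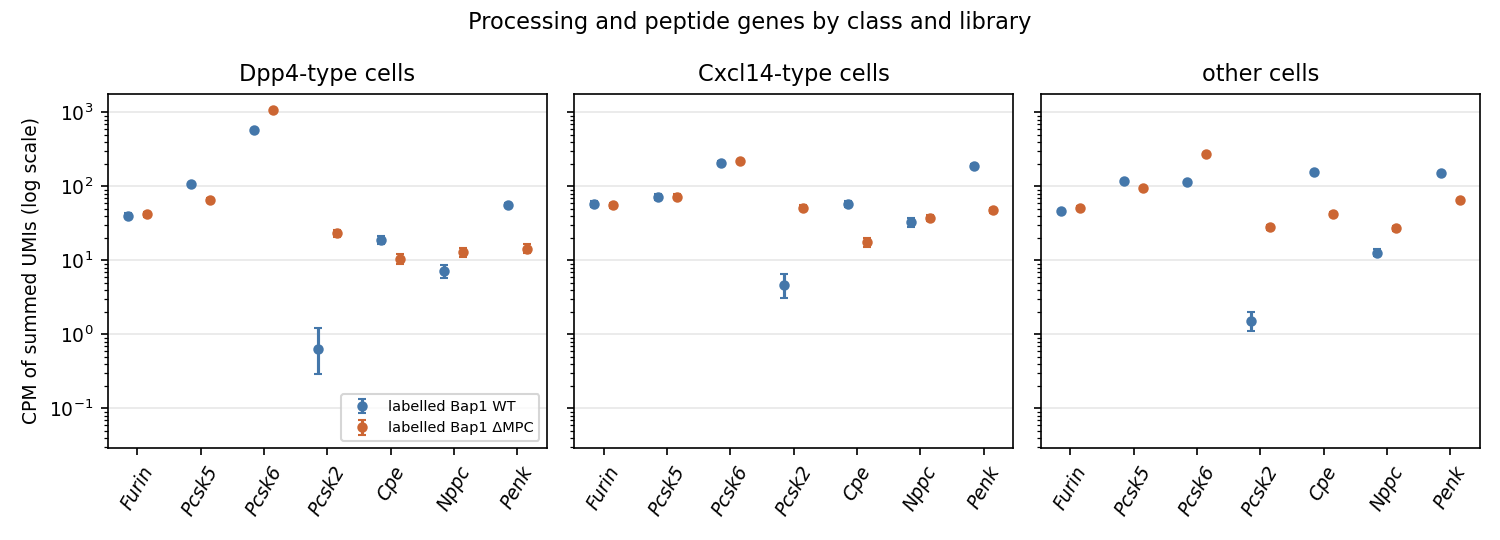
CPM of summed UMIs (log scale) of the 7 members that passed the expression minimum, in Dpp4-type, Cxcl14-type and other cells. Points are libraries, 1 per genotype, and bars are exact 95% Poisson intervals. *Pcsk2* is higher and *Cpe* and *Penk* are lower in the ΔMPC-labelled library in all 3 classes.

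Members past 3-fold between the libraries were few, and which they were is set by how the genes were chosen. In Dpp4-type cells 1 member was higher in the ΔMPC-labelled library (*Pcsk2*), where 1.64% of the 12066 genes compared were, and 1 was lower (*Penk*), where 1.38% were. In Cxcl14-type cells 1 was higher (*Pcsk2*), beside 3.12% of 12067 genes, and 2 were lower (*Cpe* and *Penk*), beside 1.72%. The interval of *Cpe* there, 2.78 to 3.95, spans 3. A *Cxcl14* limit of 10, or thinning each cell to 5000 UMIs, took *Cpe* there under 3-fold. In other cells 1 was higher (*Pcsk2*), beside 2.38% of 12368 genes, and 1 was lower (*Cpe*), beside 1.25%. Since the members were picked from these contrasts, nothing is read from the shares.

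The members also differed between the classes of 1 library. In the WT-labelled library 4 members were over 3-fold lower in Dpp4-type than in Cxcl14-type cells, where 5.36% of 12007 genes were, and none was higher, where 4.04% were. These were *Pcsk2*, 7.25-fold lower (3.37 to 17.3), *Nppc*, 4.57-fold (3.59 to 5.84), *Penk*, 3.36-fold (3.07 to 3.67), and *Cpe*, 3.04-fold (2.59 to 3.56). In the ΔMPC-labelled library *Pcsk6* was 4.86-fold higher (4.66 to 5.07) in Dpp4-type cells, where 3.18% of 12236 genes were over 3-fold higher, and *Penk* was 3.30-fold lower (2.81 to 3.89), where 6.33% were over 3-fold lower. *Cpe* in the WT-labelled library lies just past the fold of 3, while *Pcsk6* in the WT-labelled library, at 2.75-fold higher (2.59 to 2.91), and *Nppc* in the ΔMPC-labelled library, at 2.90-fold lower (2.44 to 3.46), lie just short of it. The intervals of *Cpe* and *Nppc* span 3, as does that of *Penk* in the ΔMPC-labelled library. With a score limit of 15 in place of 25, 1 member was past 3-fold in each library, *Nppc* in the WT-labelled and *Pcsk6* in the ΔMPC-labelled one. With a limit of 40 the same 4 were past it in the WT-labelled library, and *Nppc*, at a log2 ratio of -2.05, was added in the ΔMPC-labelled one. With TMM scaling *Cpe* in the WT-labelled library fell short of 3-fold.

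The order of the members by level differed by class and library. Dpp4-type cells of the WT-labelled library ran *Pcsk6*, *Pcsk5*, *Penk*, *Furin*, *Cpe*, *Nppc*, *Pcsk2*, with no neighbours of overlapping interval. Other cells of that library ran *Cpe*, *Penk*, *Pcsk5*, *Pcsk6*, *Furin*, *Nppc*, *Pcsk2*, where the intervals of *Cpe* and *Penk*, and those of *Pcsk5* and *Pcsk6*, overlap. In its Cxcl14-type cells *Pcsk6* and *Penk* came first with overlapping intervals, followed by *Pcsk5*, *Cpe* and *Furin*, the last of these with 388 UMIs each. In all 3 classes of the ΔMPC-labelled library *Pcsk6* and *Pcsk5* came first. There *Pcsk2* had moved up to stand beside *Furin* and *Penk* in Cxcl14-type cells, at 51.4 against 55.4 and 47.6 CPM with intervals that overlap each neighbour.

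Shares of cells with a UMI depend on depth, so each cell was thinned to 5000 UMIs, which left out 120 cells of the WT-labelled and 210 of the ΔMPC-labelled library. The median depth was 13635 and 11661 UMIs in Dpp4-type, 11606 and 10713.5 in Cxcl14-type, and 11916.5 and 10766 in other cells. The ΔMPC-labelled library was thus the shallower in each class.

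*Pcsk2* was found after thinning in 0.492% (0.160 to 1.14) of Dpp4-type, 2.50% (1.38 to 4.17) of Cxcl14-type and 0.748% (0.444 to 1.18) of other cells of the WT-labelled library. In the ΔMPC-labelled library it was found in 9.48% (7.89 to 11.3), 15.6% (13.3 to 18.0) and 8.90% (7.68 to 10.2). Without thinning the shares were 0.857%, 4.57% and 1.53%, and 16.3%, 26.3% and 15.4%. Most cells of every class thus had no *Pcsk2* UMI, at either depth.

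*Penk* was found after thinning in 21.5% (19.0 to 24.1) of Dpp4-type, 45.4% (41.3 to 49.7) of Cxcl14-type and 37.5% (35.6 to 39.5) of other cells of the WT-labelled library. The ΔMPC-labelled library had 4.49% (3.39 to 5.82), 13.3% (11.2 to 15.6) and 11.2% (9.86 to 12.7). *Cpe* went from 8.17% to 4.49% in Dpp4-type, from 18.4% to 7.06% in Cxcl14-type and from 44.0% to 13.8% in other cells. For both genes fewer cells of the ΔMPC-labelled library had a UMI in each class, at equal depth.

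*Pcsk6* was found after thinning in 81.8% and 91.4% of Dpp4-type cells of the WT-labelled and ΔMPC-labelled libraries, in 49.4% and 42.1% of Cxcl14-type cells and in 30.4% and 46.0% of other cells. In Cxcl14-type cells the intervals of the shares, 45.2 to 53.6 and 38.9 to 45.2, just meet. *Nppc* was found in 2.76% and 4.24%, 10.4% and 9.31%, and 4.53% and 7.89% of the same classes. *Pcsk5* ranged from 22.8% to 36.1% and *Furin* from 17.1% to 27.2% over the classes and libraries.

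Free RNA puts UMIs of a gene into cells that do not express it, and no cell type that should lack these genes was among the cells, so the background share could not be measured. Whether the low shares of *Pcsk2* in the WT-labelled library exceed it was not tested. The shares of *Pcsk6*, *Cpe* and *Penk* in the WT-labelled library at equal depth had intervals that do not overlap between any classes. In the ΔMPC-labelled library the intervals overlap between Cxcl14-type and other cells for *Pcsk6* and *Penk*, and between Dpp4-type and Cxcl14-type cells for *Cpe*.

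The levels of *Pcsk6* and *Cpe* moved along the whole range of the Dpp4-type score, which uses neither gene. In the WT-labelled library *Pcsk6* stood at 85.1 CPM in cells with a score under 5 and at 689 CPM at 60 or more, and *Cpe* went from 156 to 10.5 CPM. In the ΔMPC-labelled library *Pcsk6* went from 144 to 1385 CPM and *Cpe* from 39.3 to 5.06 CPM. On both sides of the limit of 25 the values of these genes were close. From a score of 20 to 25 to a score of 25 to 30, *Pcsk6* went from 321 to 377 CPM in the WT-labelled and from 720.2 to 776 CPM in the ΔMPC-labelled library, and *Cpe* from 47.7 to 51.8 CPM in the WT-labelled library. In the ΔMPC-labelled library *Cpe* had 29 UMIs in the 165 cells below the limit and 32 UMIs in the 172 cells above it. Between the same groups *Pcsk2* went from 14 UMIs to 1 in the WT-labelled library, and *Penk* from 31.1 to 13.6 CPM in the ΔMPC-labelled library.

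**Figure D2:**
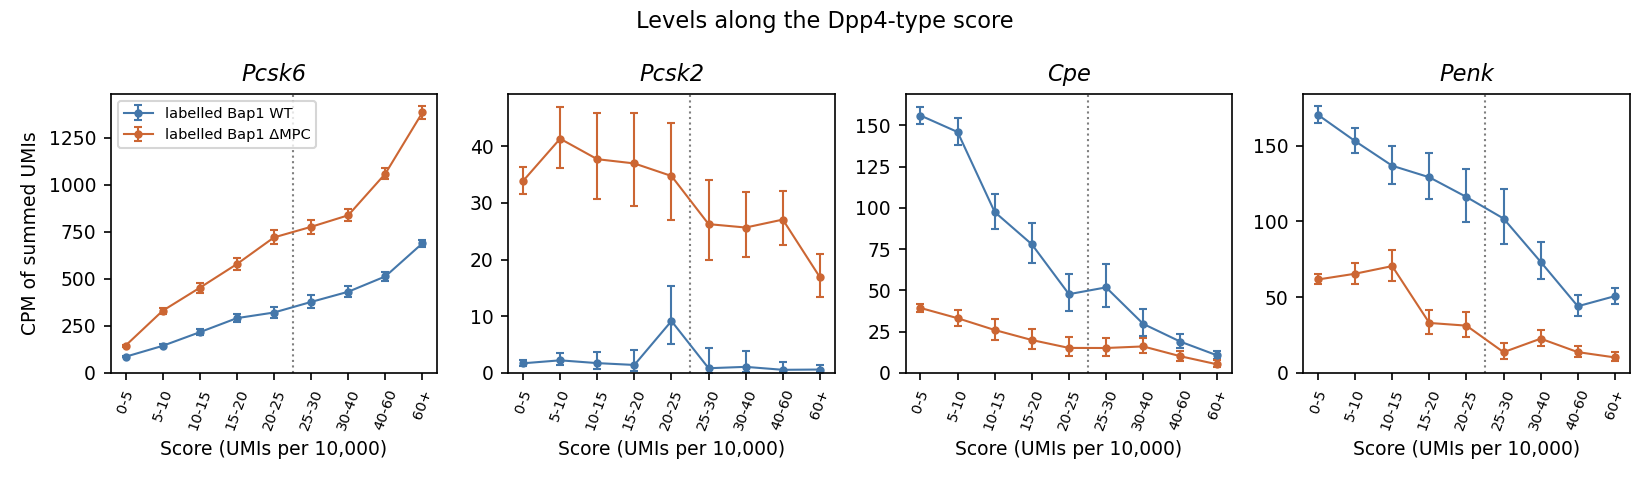
CPM of summed UMIs of *Pcsk6*, *Pcsk2*, *Cpe* and *Penk* in cells grouped by the Dpp4-type score (UMIs per 10000 of the 4 score genes). Lines join the groups of 1 library, bars are exact 95% Poisson intervals and the dotted line is the class limit of 25. *Pcsk6* is higher at higher scores in both libraries, from 85.1 to 689 CPM and from 144 to 1385 CPM.

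Members were found together in some cells. With cells of the ΔMPC-labelled library thinned to 5000 UMIs, *Nppc* was found in 17.8% (14.4 to 21.7) of 443 cells with *Pcsk2* and in 5.91% (5.17 to 6.71) of 3725 cells without. The same held in Cxcl14-type cells alone, at 23.7% (17.2 to 31.3) of 152 cells against 6.67% (5.06 to 8.59) of 825, and in other cells, at 19.2% (13.7 to 25.8) against 6.79% (5.67 to 8.05). In Dpp4-type cells it was 7.89% (3.67 to 14.5) against 3.86% (2.80 to 5.18), with intervals that overlap. *Nppc* thus occurred more often beside *Pcsk2* in Cxcl14-type and other cells of that library.

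The enzymes and *Penk* divided differently around *Pcsk2*. *Pcsk6* was found in 70.2% (65.7 to 74.4) of cells with *Pcsk2* and 56.8% (55.1 to 58.4) of cells without, in the ΔMPC-labelled library, with intervals that overlap in Dpp4-type cells and do not in the other classes. *Cpe*, which would act after it, was found in 5.42% (3.50 to 7.95) and, in 373 of 3725 cells, 10.0%, with no overlap of the intervals. By class this held only in other cells, at 6.78% (3.55 to 11.5) against 14.5% (12.9 to 16.2), and the intervals overlap in Dpp4-type cells, where 5 of 114 and 49 of 1088 cells had *Cpe*, and in Cxcl14-type cells, at 4.61% (1.87 to 9.26) against 7.52% (5.81 to 9.53). *Penk* was found in 8.58% (6.14 to 11.6) and 9.91% (8.96 to 10.9), a difference not detectable at this depth. *Scg5* was found in 0 of 443 cells with *Pcsk2* and in 5 of 3725 without. Of the 443 cells with the convertase, 24 thus had a UMI of *Cpe*, 38 one of *Penk* and 79 one of *Nppc*. In the WT-labelled library only 37 cells had *Pcsk2* at this depth, of which 4 had *Nppc*, 4 had *Cpe* and 19 had *Penk*.

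*Cpe* and *Pcsk6* were apart over all cells of both libraries. *Pcsk6* was found in 21.7% (19.4 to 24.1) of 1245 cells with *Cpe* and 57.3% (55.4 to 59.1) of 2738 cells without in the WT-labelled library, and in 37.8% (33.0 to 42.8) and 60.3% (58.7 to 61.9) in the ΔMPC-labelled library. Within each class of the WT-labelled library the intervals did not overlap either. The ΔMPC-labelled library showed this only in other cells, at 30.3% (24.9 to 36.1) against 48.5% (46.1 to 50.9), and the intervals overlap in Dpp4-type cells, at 85.2% against 91.7%, and in Cxcl14-type cells, at 30.4% (19.9 to 42.7) against 43.0% (39.7 to 46.2). Across the 4103 cells of the WT-labelled library their Pearson r was -0.464, on the log of 1 plus UMIs per 10000, and across the 4378 cells of the other it was -0.203. Cells of 1 library share its preparation, its free RNA and a range of depth and class, and are not replicates.

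By the same measure, the genes most like *Pcsk2* in the ΔMPC-labelled library were *Col4a3* (r = 0.274), *Ret* (0.273), *Aldh1a1* (0.267), *Enpp2* (0.260) and *Hspg2* (0.255), among 11317 genes. In the WT-labelled library *Pcsk2* had under 100 UMIs and was not compared, nor was *Scg5* in either. *Nppc* was most like *Ret* in both libraries, with r of 0.293 and 0.275, followed by *Lamb1* (0.278) and *Enpp2* (0.269) in the WT-labelled and by *Aldh1a1* (0.219) and *Hspg2* (0.209) in the ΔMPC-labelled library. Between *Nppc* and *Pcsk2* r was 0.179. These values describe only which cells the counts fell in.

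*Penk* was most like *Itm2a* (r = 0.348), *Igf1* (0.314) and *Abca8a* (0.299) in the WT-labelled library, and *Dlk1* (0.297), *Ptn* (0.280) and *Serpine2* (0.277) in the ΔMPC-labelled library. None of the 5 genes most like it was the same in both. Among the genes most like *Cpe* were *Cdh11* (0.415) and *Klf5* (0.403) in the WT-labelled library and *Arhgdib* (0.283) and *Fxyd6* (0.254) in the ΔMPC-labelled library.

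Cells that hold *Wnt4* or *Rtl4* among Cxcl14-type cells of the ΔMPC-labelled library had more of the members that were found together. There *Pcsk2* stood at 109 CPM (229 UMIs) in the 180 such cells and 38.2 CPM (350 UMIs) in the other 840, with no overlap of the intervals. *Nppc* stood at 76.9 CPM (65.5 to 89.6) and 28.0 CPM (24.7 to 31.6). *Wnt4* and *Rtl4* were grouped with *Pcsk2* from these same data, so the higher *Pcsk2* beside them restates that choice. The WT-labelled library had 17 such cells, with no UMI of *Pcsk2* and *Nppc* at 45.7 CPM (21.9 to 84.0) against 32.2 CPM (28.0 to 36.9) in the other 552, where no difference was detectable. Among Dpp4-type cells of the ΔMPC-labelled library, 281 cells with *Krt7* or *Plet1* had *Pcsk6* at 1464 CPM against 961 CPM in the other 970, and *Penk* at 4.78 CPM (2.73 to 7.76) against 17.3 CPM (14.9 to 19.8). *Pcsk2* stood there at 36.1 CPM (121 UMIs) against 19.6 CPM (224 UMIs), with no overlap of the intervals. The WT-labelled library had 34 such cells, with *Pcsk6* at 836 CPM (756 to 921) against 569 CPM (556 to 581) in the other 1016. They had no UMI of *Pcsk2* against 9, and *Penk* at 47.8 CPM (30.3 to 71.7) against 56.8 CPM (52.8 to 60.9), where no difference was detectable. *Nppc* stood in them at 27.0 CPM (14.4 to 46.2) against 6.45 CPM (5.18 to 7.95), with no overlap of the intervals. In the ΔMPC-labelled library *Nppc* stood at 17.0 CPM (12.9 to 22.1) in cells with *Krt7* or *Plet1* against 11.6 CPM (9.67 to 13.7), with intervals that overlap.

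The other enzymes that process precursors gave 1 gene lower over 3-fold in each class, *Cpz*, of 11 that passed the minimum in Dpp4-type cells and 12 in the other classes, from a list of 16. *Cpz* codes for a carboxypeptidase of the extracellular matrix. It went from 195 to 62.2 CPM in Dpp4-type, from 110.0 to 22.1 CPM in Cxcl14-type and from 198 to 41.8 CPM in other cells, or 3.13-fold (2.91 to 3.38), 4.97-fold (4.30 to 5.76) and 4.74-fold (4.43 to 5.07) lower. A pair of carboxypeptidases, *Cpe* and *Cpz*, was thus lower in the ΔMPC-labelled library in all classes. *Cpm*, of the same family, was over 3-fold higher in Cxcl14-type cells, from 1 to 20 UMIs, a ratio of 11.9 (1.90 to 493). *Pam*, which amidates the end of many peptides, was higher in all, from 219 to 398 CPM, from 284 to 508 CPM and from 299 to 685 CPM, and *Ctsl*, a lysosomal protease, was the most abundant of the list, at 1404 and 974 CPM over all cells. The median log2 ratio of the list was -0.06, -0.16 and -0.14 in the order of classes, beside 0.07, 0.07 and 0.11 over all genes compared. Among all those genes 1.64%, 3.12% and 2.38% were over 3-fold higher, and 1.38%, 1.72% and 1.25% were over 3-fold lower. These shares stand beside the counts of each list below as well. All the lists were chosen with earlier results of these data known, so nothing is read from such counts.

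Granule genes were mostly too low to compare. Of 25, 10 passed in Dpp4-type, 9 in Cxcl14-type and 10 in other cells, and *Cadps*, which primes dense-core vesicles for release, was over 3-fold higher in each. It had 2, 2 and 11 UMIs in the WT-labelled library and 30, 79 and 125 in the ΔMPC-labelled library, ratios of 14.3 (3.64 to 124), 23.5 (6.30 to 198) and 14.6, the last with a lower limit of 7.88. *Rab27b*, named because the count holds so few, was the only other one, in other cells, and none was over 3-fold lower. *Scg3*, a granin, stood at 5.95, 29.4 and 52.3 CPM in Dpp4-type, Cxcl14-type and other cells of the WT-labelled library and 3.86, 77.8 and 65.5 CPM in the ΔMPC-labelled library. The median log2 ratio of the list was 0.13, 0.33 and 0.36.

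Most precursors of other peptides did not pass the minimum. Of 74, 18 had no UMI in any cell, and 15, 15 and 17 passed in the 3 classes. Over 3-fold higher were *Cck* and *Tac1* in Dpp4-type, *Tac1* and *Apln* in Cxcl14-type, and *Cck*, *Gal* and *Agt* in other cells, and over 3-fold lower were *Edn1* in Dpp4-type and *Stc1* in Cxcl14-type and other cells. *Apln*, *Gal* and *Agt* were named after their values were seen. *Tac1*, the precursor of substance P, went from 1.42 to 5.01 CPM, from 4.03 to 17.9 CPM and from 12.2 to 22.7 CPM. *Edn1*, the precursor of endothelin, went from 48.5 to 14.5 CPM in Dpp4-type cells, and *Stc1*, a glycoprotein hormone, from 18.4 to 2.93 CPM in other cells. *Nucb2* and *Adm* were the most abundant, at 118 and 110.3 CPM over the WT-labelled and 92.0 and 86.0 CPM over the ΔMPC-labelled library. The median log2 ratio was 0.18, -0.13 and 0.34.

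Receptors for such peptides moved in both directions. Of 35, 16 passed in Dpp4-type and 18 in each of the other classes. In the order of classes 1, 2 and 2 were over 3-fold higher, beside 1.64%, 3.12% and 2.38% of all genes compared. Over 3-fold lower were 3, 3 and 2, beside 1.38%, 1.72% and 1.25%, and nothing is read from these counts. *Agtr1a*, a receptor of angiotensin, went from 50.6 to 10.1 CPM in Dpp4-type, from 51.8 to 5.15 CPM in Cxcl14-type and from 38.5 to 7.83 CPM in other cells. *Adcyap1r1*, the receptor of the peptide PACAP, was 9.78-fold lower (6.94 to 14.1) in Cxcl14-type cells, and *Npy1r*, a receptor of neuropeptide Y, was 5.32-fold higher (3.22 to 9.38) there and 4.66-fold higher (3.59 to 6.10) in other cells. *Ramp1*, a partner of the receptor for calcitonin gene-related peptide, was 4.29-fold higher (3.89 to 4.74) in Dpp4-type cells. *Agtr2* and *Aplnr* were among the lower ones in 1 class each, as was *Ednra*, and *Npr3*, which clears natriuretic peptides, and *Ramp3* among the higher. *Agtr2*, *Aplnr*, *Ednra* and *Npr3* were named after their values were seen. The median log2 ratio was 0.12, -0.02 and 0.18.

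Enzymes that degrade peptides mostly kept within 3-fold. Of 14, 13 passed in each class and 1 was past 3-fold, *Enpep*, an aminopeptidase that cuts angiotensin, at 6.73 against 1.22 CPM in Dpp4-type cells. *Mme*, the neprilysin that cuts enkephalins and natriuretic peptides, stood in Cxcl14-type cells at 89.8 CPM in the WT-labelled and 76.9 CPM in the ΔMPC-labelled library, and in other cells at 17.2 and 31.6 CPM, a ratio of 1.84 (1.64 to 2.06). The median log2 ratio was -0.11, -0.01 and -0.05.

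Genes whose products convertases cut moved in both directions. Of 20, 19, 18 and 19 passed. Over 3-fold higher were 1, 2 and 1 and over 3-fold lower 2, 2 and 1, beside the shares of all genes given above. *Mmp15*, a membrane protease activated by furin, was higher in every class, by 6.05-fold (2.54 to 17.5), 8.18-fold (3.02 to 31.1) and 3.30-fold (2.31 to 4.79). *Bdnf* went from 1.04 to 16.3 CPM in Cxcl14-type cells, where *Bmp4* went from 284 to 79.1 CPM, and *Sema3a* went from 8.93 to 0.745 CPM in Dpp4-type cells. The median log2 ratio was 0.41, 0.16 and 0.35.

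Markers of other cell types also moved between the libraries. The 5 adipocyte markers summed to 6.21 CPM in the WT-labelled and 75.6 CPM in the ΔMPC-labelled library, most of it *Fabp4* at 4.84 and 47.5 CPM. With the 31 and 146 cells that held 2 or more UMIs of them left out, a choice made after seeing the data, the same number of members was past 3-fold in each class. The 5 tenocyte markers summed to 172 and 416 CPM, mostly *Thbs4*, and the 6 Schwann cell markers to 21.5 and 67.9 CPM, of which *S100b* was 78.1% and 93.8%, while *Sox10* had no UMI in the ΔMPC-labelled library. The 5 immune markers summed to 6.66 and 14.8 CPM, with *Cd68* and *Lyz2* the most abundant and *Ptprc* at 0 in both. The part of these cell types in the members' levels was not tested, except for the cells with adipocyte markers.

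Markers of neuroendocrine cells, in which *Pcsk2* is best known, had a like sum in the libraries. It was 1.63 CPM in the WT-labelled and 1.66 CPM in the ΔMPC-labelled library over all cells, most of it *Syp*, and 2 and 16 UMIs in Cxcl14-type cells, and *Insm1* and *Neurod1* were at 0 in both. The 7 neuron markers summed to 21.0 and 23.3 CPM, mostly *Stmn2*, with *Elavl4* at 0 in the WT-labelled and *Snap25* at 0 in the ΔMPC-labelled library. By class they went from 7.93 to 13.4 CPM in Dpp4-type, from 9.70 to 19.8 CPM in Cxcl14-type and from 29.7 to 31.2 CPM in other cells, and their part in the levels of *Pcsk2* was not tested. Perineurial markers, led by *Slc2a1* and *Cldn1*, summed to 17.5 and 18.7 CPM, and endothelial markers, led by *Pecam1*, to 4.10 and 5.57 CPM. The muscle stem cell list held only *Vcam1* (37.6 and 20.5 CPM), with *Pax7*, *Myf5* and *Myod1* at 0 in both. Also lower in the ΔMPC-labelled library, as *Cpe* and *Penk* were, were the muscle fibre list, led by *Acta1* and *Tnnt3*, at 52.3 and 30.5 CPM, and the mural cell list, led by *Cspg4*, at 62.6 and 46.3 CPM. By class the muscle fibre list went from 38.6 to 37.9 CPM in Dpp4-type, from 78.8 to 30.8 CPM in Cxcl14-type and from 52.8 to 25.7 CPM in other cells. The part of both lists was not tested. Genes induced by tissue dissociation, led by *Jun* and *Fos*, summed to 15156 and 16949.6 CPM, and their part was not tested either.

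Promoter sequences from RefSeq (GRCm38) were at hand for 8 members. Those of *Pcsk2* and *Nppc* are shown because *Nppc* was found more often in cells with *Pcsk2* than without, over all cells of the ΔMPC-labelled library. *Pcsk2* was higher in that library in every class, and *Nppc* in Dpp4-type and other cells. *Pcsk6*, not shown, was also found more often beside *Pcsk2* and was higher in Dpp4-type and other cells. Each sequence shown runs 300 bases across the annotated start, at chr2:143545883-143546182 on the plus strand for *Pcsk2* and at chr1:86670524-86670823 on the minus strand for *Nppc*. Motifs were searched on both strands, and matches that overlap were each counted. They were the cyclic AMP response element TGACGTCA, its half-site TGACG, which lies within the full element, the GC box GGGCGG and the TATA box TATAAA. Capitals mark the matches.
Pcsk2: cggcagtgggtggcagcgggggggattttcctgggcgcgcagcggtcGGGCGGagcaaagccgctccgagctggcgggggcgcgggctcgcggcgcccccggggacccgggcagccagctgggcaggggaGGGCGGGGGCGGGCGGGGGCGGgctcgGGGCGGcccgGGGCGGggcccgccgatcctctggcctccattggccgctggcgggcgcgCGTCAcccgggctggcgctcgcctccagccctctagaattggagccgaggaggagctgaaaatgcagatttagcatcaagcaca
Nppc: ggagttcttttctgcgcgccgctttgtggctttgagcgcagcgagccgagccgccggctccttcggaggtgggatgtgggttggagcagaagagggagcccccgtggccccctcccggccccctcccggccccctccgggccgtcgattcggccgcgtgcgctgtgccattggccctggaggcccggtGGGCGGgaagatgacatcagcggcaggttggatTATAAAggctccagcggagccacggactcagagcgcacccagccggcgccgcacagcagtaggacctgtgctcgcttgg
The *Pcsk2* promoter held 7 GC boxes and 1 half-site, read as CGTCA on the strand shown, and neither a full element nor a TATA box. The *Nppc* promoter held 1 GC box and 1 TATA box and no exact match to the response element or its half-site. Of 32851 promoters of this length, 35.7% held a GC box, 13.6% a TATA box, 20.8% the half-site and 1.79% the full element. The full element was in the promoters of *Pcsk1* and *Scg2* and not in those of the other members at hand. A match of letters describes the sequence and is not evidence that a factor binds there.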

How the data were processed

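Single-cell RNA was measured in 2 libraries of sorted FAPs, 1 per genotype, as 10x Genomics 3′ libraries. The deposited tables hold raw UMI counts per gene and cell, which the authors made with Cell Ranger 3.1.0 on mm10. Per the labels, FastQC 0.11.7, bcl2fastq 2.20.0, R 3.6.1 and Seurat 3.2.1 were also used. All 8481 cells were kept. The members and gene lists were chosen with earlier results of these data known. UMIs were summed per class and library and divided by the class total (CPM). Genes needed a mean over 0.01 UMIs per 10000 in all cells and 20 UMIs in the class over both groups compared. Ratios carry exact conditional Poisson intervals and shares Clopper-Pearson intervals, at 95%. A count of 0 was held at a floor of 3 counts. No paired analysis was possible because there is 1 library of each genotype, and no test was made. Genes named from a list are the 5 with the largest ratio in any class at 100 or more UMIs, and the 3 with the highest CPM, with a choice among these given in full. Genes most alike are the 5 with the highest Pearson r. Results on some genes are not used here. Doublets were called by Scrublet in scanpy 1.11.5 (2 and 1 cells) and left out in an alternative only. Other tools were Python 3.11.15, numpy 2.4.6, scipy 1.17.1, matplotlib 3.10.9 and edgeR 4.0.16 in R 4.3.3 for TMM factors. The procedure was tested on simulated data. Alternatives changed the class limits, scaling, weighting, depth, minimum and fold.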

Additional observations from a re-analysis of the deposited data

Results flagged for a closer look

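These genes, from the lists beside the members, were higher in the ΔMPC-labelled library in 1 class and lower in another, each by over 1.5-fold with an interval that excludes 1. A further class is given where its interval excludes 1. The granin *Scg3* had log2 ratios of -0.62 in Dpp4-type, 1.40 in Cxcl14-type and 0.33 in other cells. *Pthlh*, the precursor of parathyroid hormone-related peptide, had 0.76, -0.80 and -0.52 in the same order. *Ramp1* had 2.10 in Dpp4-type and -0.81 in Cxcl14-type cells. With 1 library per genotype, none of these differences between classes was tested.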

How the results depend on the processing

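Across the alternatives no called ratio changed sign. Counts of members past the fold stayed within 1.5 times the reported count in 61 of 65 cases. Log2 ratios stayed within the counting interval in 267 of 315, shares of cells in 239 of 336 and co-detection in 27 of 32. These totals mix settings that could change little with settings that had to change the shares. Leaving out the Scrublet calls moved none, while shares left the interval in 41 of 42 cases without thinning and 39 of 42 at 8000 UMIs. A Dpp4-type score of 15 left 1 member past 3-fold between the classes of the WT-labelled library (against 4) and 1 in the ΔMPC-labelled library (against 2). The cause was not tested. A score of 40 kept the 4 and gave 3 in the ΔMPC-labelled library, with *Nppc* added, and thinning each cell to 5000 UMIs gave the same 3 there. A *Cxcl14* limit of 10 gave 2 there, with *Nppc* in place of *Penk*. That limit and thinning also took *Cpe* under 3-fold between the libraries in Cxcl14-type cells and between the classes of the WT-labelled library, where thinning took *Penk* under it and *Pcsk6* past it, and a minimum of 100 UMIs left out *Pcsk2*. A fold of 2 gave 5 members between the libraries in other cells (against 2) and 4 between the classes of the ΔMPC-labelled library (against 2), as a lower fold must give no fewer. Shares without thinning, at greater depth, put *Nppc* in 24.1% of cells with *Pcsk2* (against 17.8%). TMM factors moved the median log2 ratio of all genes in other cells from 0.11 to -0.02, and took *Cpe* between the classes of the WT-labelled library under 3-fold. The ratio of *Furin* changed sign in some settings in Dpp4-type and Cxcl14-type cells, as did *Pcsk5* in Cxcl14-type cells, all near 1. The log2 ratio of *Pcsk2* between the libraries ran from 4.16 to 5.32 in Dpp4-type, 3.11 to 3.66 in Cxcl14-type and 4.01 to 4.42 in other cells. The expression minimum was first applied to the mean of log values and changed to the plain mean after values had been seen. The log version, and leaving out cells with adipocyte markers, are alternatives chosen after seeing the data, and under both the number of members past 3-fold was as reported, except that without those cells 3 members were past it between the classes of the ΔMPC-labelled library, with *Nppc* added. *Pcsk1*, *Scg2* and *Scg5* had at most 9 UMIs in a library, and whether depth limits them was not tested.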
